A study of Mus musculus with 3 samples.

Results

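The comparison described here set the expression of all measured genes in NIH/3T3 cells exposed to 5aza-dC against mock-treated cells. NIH/3T3 is an established mouse fibroblast line. Both samples were chosen by their titles, and they are 2 of the 3 samples of the series. The mock cells received mock treatment only. The 5aza-dC cells received 1 uM 5aza-dC (decitabine), replaced daily, for 3 days. The remaining sample, recovery, had the same exposure and then 14 days without the drug, and is used here only for values set beside the others. All 3 samples were grown in the same medium with foetal calf serum. Each deposited column is the mean of 2 arrays of an Illumina bead array, on which each gene is read by 1 or more short probes. Of 19057 named genes measured, 8982 were detected in at least 1 sample and were compared.

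5aza-dC is a deoxycytidine analog. Cells build it into DNA, where it traps DNA methyltransferases, so that methylation of cytosines in CG dinucleotides is lost as the cells divide. Methylation of promoters rich in CG is known to keep germ cell genes and some tissue-specific genes silent in somatic cells. In other cell types such drugs are also known to raise transcripts from repeated elements, whose double-stranded RNA can be read by antiviral sensors, and interferon then acts through a receptor and STAT and IRF factors on genes that carry interferon-stimulated response elements (ISREs).

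The samples carried the markers of their label. Of 14 fibroblast markers, 11 were detected in both samples, and their summed signal was 26765 in mock and 18284 in 5aza-dC. Signal is the deposited intensity on a linear scale, not normalised between samples, where the median probe lay at background with 63.8 in mock and 61.2 in 5aza-dC and the mean was 321 and 277. Vim (vimentin) read 11275 and 8446, and Thy1 read 1528 and 1297. By the test given below, 6 of the fibroblast markers fell and 1 rose, the growth factor receptor Pdgfra (1.57 ± 0.09). Macrophage markers were at background apart from Cd14, with 1 of 9 detected in each sample and a summed signal of 844 in mock and 791 in 5aza-dC; Ptprc, the defining leukocyte marker, was not detected in either. None of 5 T and B cell markers was detected, and their sum went from 317 to 301. Endothelial markers numbered 0 of 7 detected in mock and 2 of 7 in 5aza-dC, and their sum went from 455 to 466. Of 8 epithelial markers, 2 were detected in mock and 5 in 5aza-dC, and their sum went from 589.9 to 2748, while Epcam and Cdh1 were not detected in either sample. In a bulk sample, fewer cells of a type and less RNA per cell cannot be told apart. The mRNA of the drug's main target, the maintenance methyltransferase Dnmt1, read 649.7 in mock and 449.9 in 5aza-dC, a log2 difference of -0.27 ± 0.13 that did not pass the test below (adjusted p = 0.112, limma with Benjamini-Hochberg adjustment).

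Promoters of some of the genes that rose most are shown here, chosen for holding 1 of 2 kinds of sequence on which the later results turn. Others of the largest rises, among them Cmpk2, Oasl2, Psg23 and Krt14, held neither. The first set holds the ISRE core, which is GAAA, any 2 bases and GAAA again, searched on both strands. Its matches are in capitals, and a match is a description of the letters, not of binding. Each line gives the sequence 5′ to 3′ on the gene's strand, ending before the transcription start, from RefSeq promoters of GRCm38.p6. Matches that share bases appear as 1 longer run of capitals.
Rsad2, chr12:26456523-26456612, minus strand: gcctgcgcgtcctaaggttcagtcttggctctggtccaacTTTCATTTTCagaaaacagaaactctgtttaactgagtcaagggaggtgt
Irgm2, chr11:58214873-58214962, plus strand: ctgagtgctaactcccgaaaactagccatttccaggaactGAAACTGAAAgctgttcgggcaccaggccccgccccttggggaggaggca
Igtp, chr11:58199482-58199555, plus strand: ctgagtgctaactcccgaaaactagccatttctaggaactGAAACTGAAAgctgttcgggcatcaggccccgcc
Ifit3, chr19:34583333-34583456, plus strand: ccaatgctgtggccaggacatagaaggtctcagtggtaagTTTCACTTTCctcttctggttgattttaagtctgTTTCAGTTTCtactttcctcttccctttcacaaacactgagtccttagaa
Cxcl10, chr5:92349053-92349139, minus strand: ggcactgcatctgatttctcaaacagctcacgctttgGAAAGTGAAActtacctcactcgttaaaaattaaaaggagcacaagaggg
Apol9a, chr15:77411084-77411179, minus strand: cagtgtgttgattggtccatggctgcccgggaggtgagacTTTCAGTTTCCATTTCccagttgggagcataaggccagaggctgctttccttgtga
Apol9b, chr15:77728995-77729071, plus strand: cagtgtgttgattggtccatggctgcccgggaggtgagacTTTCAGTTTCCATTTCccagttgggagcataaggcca
Oas1g, chr5:120887614-120887671, minus strand: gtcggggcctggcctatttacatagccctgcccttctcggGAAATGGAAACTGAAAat

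The windows of Irgm2 and Igtp differed at 2 of the 74 bases they share, and those of Apol9a and Apol9b at 0 of 77. The second set holds genes whose promoters are rich in CG, here in capitals, the dinucleotide whose methylation the drug blocks. Such promoters were a minority among the large rises, as given below. The 120 bases before the start are given.
Tex19.1, chr11:121146023-121146142, plus strand: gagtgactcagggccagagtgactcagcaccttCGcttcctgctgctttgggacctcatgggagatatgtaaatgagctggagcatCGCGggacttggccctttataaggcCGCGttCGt
Txnip, chr3:96557837-96557956, plus strand: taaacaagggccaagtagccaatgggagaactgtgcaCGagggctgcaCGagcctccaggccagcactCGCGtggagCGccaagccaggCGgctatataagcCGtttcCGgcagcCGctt
Tuba3b, chr6:145615843-145615962, plus strand: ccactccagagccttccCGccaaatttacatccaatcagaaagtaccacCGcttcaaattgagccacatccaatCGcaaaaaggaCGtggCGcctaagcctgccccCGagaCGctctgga

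Called differences were more often higher than lower after exposure, at each size of difference. A gene was called when the normalised levels differed at least 2-fold and the gene was detected (detection p-value below 0.01, the share of negative control beads that read as bright) in the brighter sample. In all, 593 genes were called higher (6.6% of 8982) and 251 lower (2.79%), so 70.3% of called genes were higher. When columns were instead brought to a common median over probes the split was 521 to 420 (55.4% higher). Between 2-fold and 4-fold, 458 genes were higher and 239 lower, and at 4-fold and above 135 and 12. At 16-fold and above, 21 genes were higher and none was lower. In the authors' background-subtracted values each of the 593 was also higher and each of the 251 lower.

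**Figure D1:**
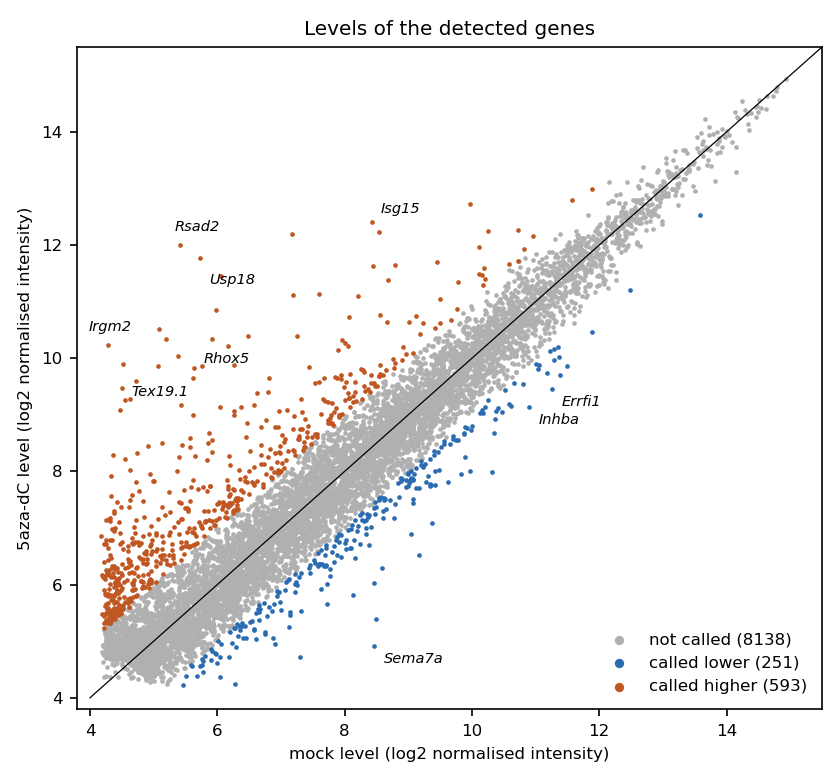
Level of each of the 8982 detected genes in 5aza-dC (y axis) against mock (x axis), in log2 normalised intensity, with the line of equality. Called genes (593 higher, 251 lower) are coloured; the largest differences are rises of genes near background in mock.

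Testing used the 2 arrays behind each column, whose levels were solved back from the deposited signal, detection p-values and background-subtracted values. Rose and fell are used below only for genes that passed limma with Benjamini-Hochberg adjustment at 0.05, and values are log2 differences of 5aza-dC minus mock ± SE with n = 2 arrays per group. By this test 2705 genes rose (30.1%) and 2426 fell (27.0%), and all 844 called genes (9.4%) passed. Bringing the arrays to a common median instead of common quantiles left 569 rises and 393 falls, so counts of risen and fallen members given below shrink under it in most lists. The median difference of all genes was then -0.11, and list medians read against it kept their sign for each list whose direction is stated below. Whether the 2 arrays are the duplicate independent experiments of the design is not stated, so p-values may measure only technical spread, and the number of arrays limits the precision. Where neither mock array detected a gene, its rise is given as a lower bound of the fold. Close paralogs, among them the Oas1, Apol9, Ifit and Gbp genes, may share probes.

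The size of a call went with the level in mock. Of 1986 genes with a mock signal below 100, 312 were called higher (15.7%) and 4 lower. Of 943 genes at 2000 or above, 6 were called higher (0.64%) and 17 lower (1.80%). Genes near background in mock entered the comparison only where some sample detected them, so part of this slope was fixed by the filter. In 212 of the 593 genes called higher (35.8%) mock did not detect the gene, against 18 of the 251 called lower (7.17%) not detected in 5aza-dC.

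Some genes crossed from background to detection. Detection (p below 0.01) in 5aza-dC with p above 0.05 in mock was seen for 534 genes (5.95%), and the reverse for 110 (1.22%). Most of these switched-on genes stayed dim, with a median signal of 77.7 against 65.3 in mock, and both 5aza-dC arrays detected 486 of them. The brightest was Irgm2, an interferon-inducible GTPase of intracellular defence, which read 60.4 in mock and 1195 in 5aza-dC (at least 43.0-fold). Slc47a1, a transporter of organic cations, went from 63.8 to 349.7 (at least 11.3-fold) and Cyp2c55, a cytochrome P450, from 62.4 to 228 (at least 6.71-fold). The largest switched-off differences were smaller: Ivl (involucrin, of the epidermal envelope) read 133 in mock and 56.3 in 5aza-dC (at least 3.02-fold lower), and Car9, a hypoxia-induced carbonic anhydrase, 102 and 61.9. Sh2d5, an adaptor protein, read 119.9 and 60.9 (at least 2.64-fold lower).

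The 25 largest rises had fitted differences of 3.92 to 6.62 and adjusted p-values of 1.85e-07 to 1.12e-05 (limma with Benjamini-Hochberg adjustment). Rsad2 (viperin, an antiviral enzyme) had levels of 5.27 and 5.50 on the mock arrays and 11.97 and 12.03 on the 5aza-dC arrays. The pairs did not overlap, as was so for each of the 25 genes, which choosing the largest differences on these same arrays made near certain. Over all genes both 5aza-dC arrays lay above both mock arrays in 40.2%. Of these 25 genes, 14 stood on 8 lists of antiviral genes, which were drawn up with earlier results of these data known. The others included Tex19.1, a germ cell gene that restrains retrotransposons (4.48 and 4.49 in mock, 9.47 and 9.48 in 5aza-dC, at least 25.7-fold). Psg23, a pregnancy-specific glycoprotein of the placenta, read 91.5 in mock and 1065 in 5aza-dC and rose by 4.64 ± 0.08. The 25 largest falls were smaller, from -3.53 to -1.68, and in each of them too the pairs lay apart, again near certain from the choice. Both 5aza-dC arrays lay below both mock arrays in 38.7% of all genes.

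**Figure D2:**
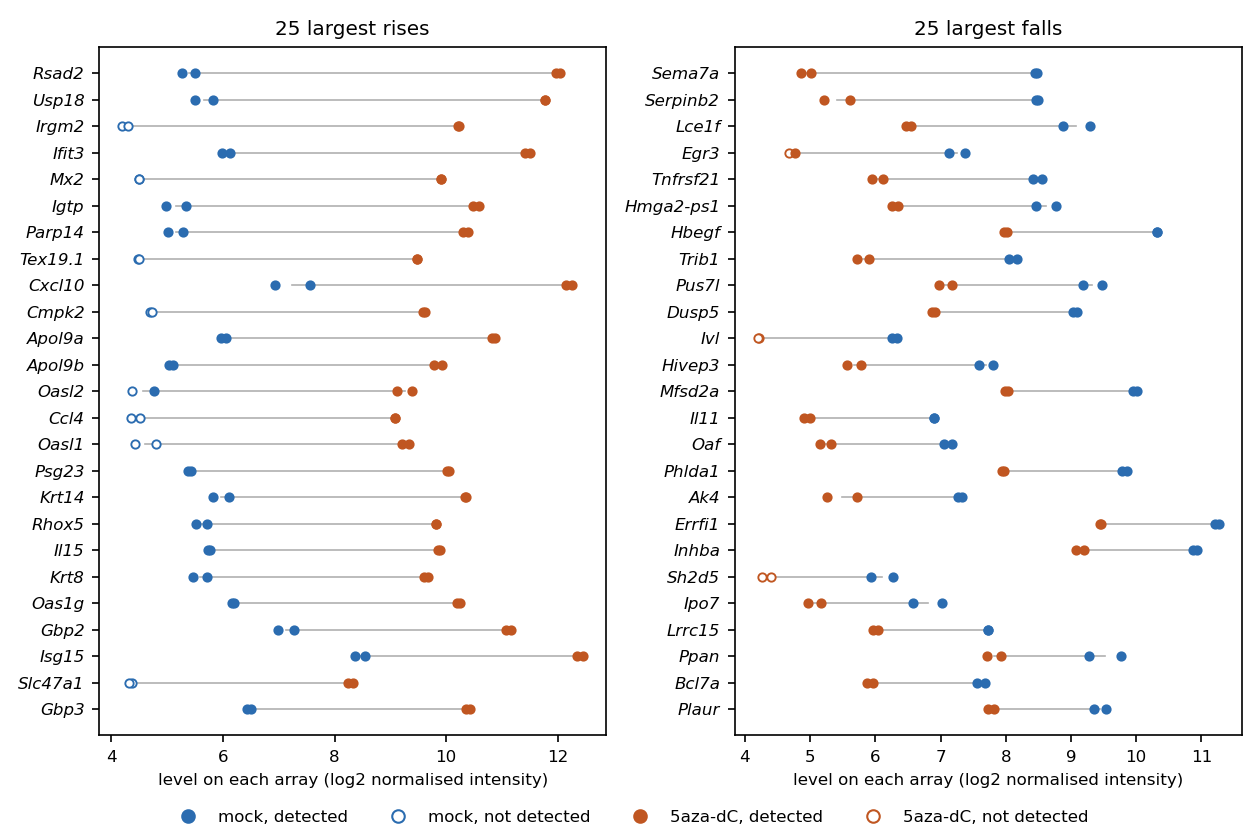
Level on each of the 2 arrays of mock and 5aza-dC (x axis, log2 normalised intensity) for the 25 largest rises and 25 largest falls (y axis). Open circles are arrays that did not detect the gene, and lines join the group means. The arrays of a pair lie close together, and the groups do not overlap, as choosing the largest differences made near certain.

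Most detected genes rose on each of 8 antiviral lists, which cover sensing, signalling and effectors. Most interferon ligands and receptors, on a list of their own, did not. Under median scaling risen genes were no majority for sensing (6 of 16), JAK, STAT and IRF signalling (5 of 13), PARP (5 of 14) and the immunoproteasome (6 of 12). They stayed a majority on the other antiviral lists. On the 8 lists together, 122 genes were measured and 94 detected, of which 78 rose, 1 fell and 15 did not pass (52 rose and none fell under median scaling). They were nevertheless 53 of the 593 genes called higher (8.94%), and 487 called-higher genes stood on none of the 45 lists used here. The 45 lists were drawn up with earlier results of these data known, so counts on them are not independent evidence of direction.

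Among nucleic acid sensors 13 of 16 detected genes rose and none fell. Dhx58 (LGP2), a helicase that tunes RNA sensing, read 93.5 in mock and 608 in 5aza-dC and rose by 3.68 ± 0.11. The RNA-activated kinase Eif2ak2 (PKR) went from 451 to 3063 (3.17 ± 0.08), Ddx58 (RIG-I) from 76.4 to 189 (2.33 ± 0.16) and Trim25, its ubiquitin ligase, from 1088 to 2560 (1.59 ± 0.08). In recovery they read 92.0, 428, 69.2 and 740.4; the recovery values here and below are set side by side only, since both comparisons use the same mock sample.

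The ligand itself was faint. Ifnb1, which codes for interferon beta, read 57.4 in mock and 94.4 in 5aza-dC, with 60.6 in recovery, a rise of at least 1.77-fold (adjusted p = 4.5e-04). It was the only one of 4 detected interferon ligand and receptor genes to pass, of 16 measured. The receptor chains Ifngr2 (0.14 ± 0.10), Ifnar2 (-0.11 ± 0.11) and Ifngr1 (-0.05 ± 0.08) did not pass. Downstream, 9 of 13 detected JAK, STAT and IRF genes rose and none fell. Irf7, the factor that amplifies interferon production, read 61.7 in mock and 183 in 5aza-dC (at least 4.99-fold). Stat2 and Irf9, partners in the complex that binds ISREs, rose at least 4.95-fold and by 2.80 ± 0.09. Irf1 was already bright in mock and went from 1344 to 3895 (1.86 ± 0.07).

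Among effectors, all 11 detected interferon-inducible GTPases (18 measured) and all 8 detected oligoadenylate synthetase genes (12 measured) rose. Their medians were 2.48 and 2.69, or 2.06 and 2.15 with members not detected in mock at their bound, against 0.0071 for all genes. Oas1g, which makes the oligoadenylates that activate RNase L, went from 127 to 1188 and read 71.0 in recovery. Its neighbours Oas2, Oas1b and Oas1a rose at least 5.19-fold, 3.78-fold and 1.81-fold, and Oas3 at least 1.08-fold. Of 15 detected IFIT, viperin and IFITM genes 14 rose, with the tetherin gene Bst2 going from 219 to 1346 (3.26 ± 0.23).

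The ISG15 pathway rose at 3 successive steps. Isg15, a ubiquitin-like modifier, read 445 in mock and 5283 in 5aza-dC (3.95 ± 0.09). Its activating enzyme Uba7 went from 100.4 to 539.9 (3.36 ± 0.08) and its conjugating enzyme Ube2l6 from 138 to 594 (2.74 ± 0.11). The deconjugating protease Usp18, also a brake on the interferon receptor, went from 104 to 3399. The 1 fall on the antiviral lists was that of Ube2e1 (-0.38 ± 0.08), a conjugating enzyme used by ubiquitin too. Under median scaling it did not pass.

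Proteasome subunits split by kind. Of 12 detected immunoproteasome and peptide-loading genes 10 rose and none fell, with a median of 1.40. Psmb8, an inducible catalytic subunit, read 525 in mock and 2597 in 5aza-dC (2.67 ± 0.10), and the peptide transporter subunit Tap1 read 68.3 and 144 (2.02 ± 0.17). Of 26 detected constitutive subunits 1 rose (2 without mock array 2) and 7 fell, with a median of -0.06. The 7 became 1 without 5aza-dC array 1 and 3 without 5aza-dC array 2. The difference between these lists was not tested.

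Among 14 detected PARP family genes 9 rose and none fell. Parp14, a mono-ADP-ribosyltransferase, read 85.5 in mock and 1293 in 5aza-dC, its partner Dtx3l rose by 2.97 ± 0.08, and Parp10 rose at least 5.98-fold. Brakes on cytokine signalling moved both ways, with 9 of 18 detected genes higher and 2 lower by the test. Socs2 rose by 1.08 ± 0.12, while Ptpn2, a phosphatase that removes activating phosphates from JAK and STAT proteins, fell from 345 to 150.5 (-1.27 ± 0.08).

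On the cell death list, which holds apoptosis as well as inflammasome genes, 15 of 24 detected genes rose and 2 fell (none without 5aza-dC array 1), and under median scaling 5 rose and none fell. Casp1, the inflammasome protease, was at background in mock (64.3) and read 198 in 5aza-dC and 114 in recovery, a rise of at least 5.57-fold. Casp4, which senses bacterial lipopolysaccharide in the cytosol, read 189, 570.4 and 127 in the same order (2.13 ± 0.10). The death receptor Fas rose by 1.51 ± 0.08 and the pore-forming Gsdmd by 1.24 ± 0.08. In the complement list 4 of 5 detected genes rose, with Cd59a, which shields cells from complement, at 1.88 ± 0.09 and C2 at least 2.06-fold.

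**Figure D3:**
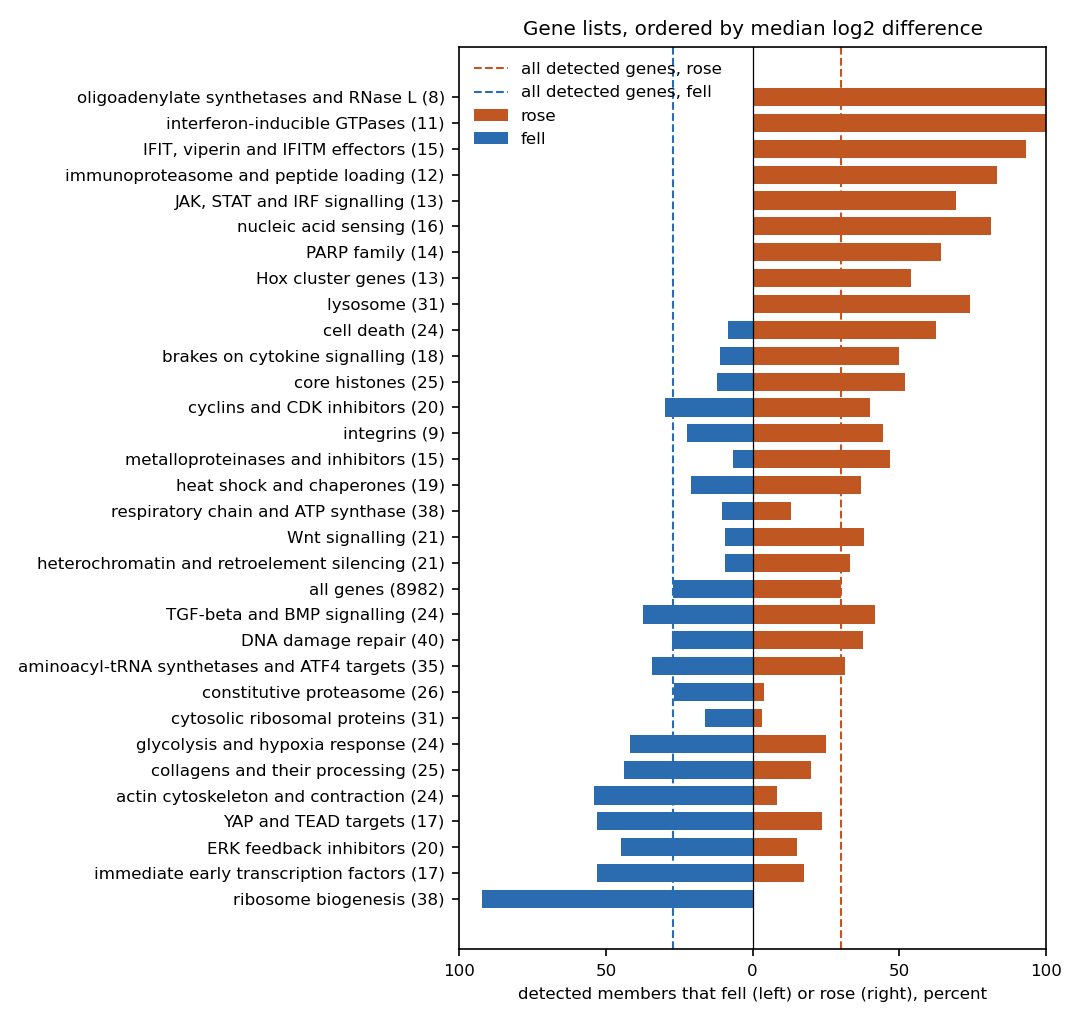
Percent of the detected members of each gene list that rose (right) or fell (left) by limma, for lists with 8 or more detected members (number in parentheses), ordered by median difference; dashed lines give all 8982 genes, of which 30.1% rose and 27.0% fell. Antiviral lists stand at the top and ribosome biogenesis at the bottom.

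Lysosomal genes rose as a group by smaller amounts. Of 31 detected genes 23 rose and none fell, with a median of 0.50, and under median scaling 5 rose and none fell. The cysteine protease Ctsh read 173 in mock and 706 in 5aza-dC (2.56 ± 0.12). Laptm5, a membrane protein best known from blood cells, rose at least 3.34-fold, and the macrophage, T and B cell markers given above lay near background apart from Cd14. Hexa, a hexosaminidase subunit, rose by 1.36 ± 0.12 and the autophagy receptor Sqstm1 by 1.20 ± 0.07.

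Most genes on the lists of other tissues and of early development stayed below detection. Of 38 measured placental genes 5 were detected. Psg23 is described above and Plac1 rose by 0.94 ± 0.13, while the proliferin genes Prl2c2 (1384 in mock, 574 in 5aza-dC) and Prl2c3 (2342 and 1021) fell by 1.04 and 0.97, and Plac8 did not pass (0.02 ± 0.08). Of 35 measured cancer-testis genes, Tex14 (0.50 ± 0.10) and Xlr4a (0.45 ± 0.11) were detected in at least 1 sample, 0 in mock and 1 in 5aza-dC. Both read below 72 in mock and 5aza-dC, so these sizes lie near background. Their median was 0.48, or 0.23 with the 1 member that neither mock array detected at its bound. The cancer-testis list did not hold Tex19.1, given above, or the reproductive homeobox gene Rhox5, which was also among the 25 largest rises. Among 37 measured clustered protocadherins 3 were detected, of which Pcdhb22 fell from 208 to 89.2 (-1.66 ± 0.08) and Pcdhgc3 and Pcdhgc5 did not pass. The liver genes Apob and Hpx rose at least 2.05-fold and 1.14-fold among 21 measured, and 1 of 11 measured globin and red cell genes, Epor, was detected without passing (-0.04 ± 0.14). Of 13 detected Hox genes 7 rose and none fell, with Hoxa2 at 1.30 ± 0.10 and Hoxa5 at 1.20 ± 0.18.

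Some regulators outside these groups rose strongly too. Cdkn1c (p57), an inhibitor of cyclin-dependent kinases, went from 73.6 to 357 (3.58 ± 0.09), with 139 in recovery. Bmp4, a secreted morphogen, went from 119.6 to 597 (3.11 ± 0.08), with 278 in recovery. In the TGF-beta and BMP list as a whole, 10 of 24 detected genes rose and 9 fell; the 9 became 5 without 5aza-dC array 1. The activin subunit Inhba fell from 2322 to 599 (-1.77 ± 0.08) and Id4, an inhibitor of differentiation factors, by 1.62. Of 25 detected core histone genes 13 rose and 3 fell, led by H2bc4 (2.12 ± 0.16) and H2bc6 (1.54 ± 0.09). In the list of tRNA synthetases and targets of the stress factor ATF4, 11 of 35 detected genes rose and 12 fell (7 without 5aza-dC array 1). Its largest rises were those of Nupr1 (861 to 3204, 2.22 ± 0.10) and Ddit3 (1.75 ± 0.20). Among 19 detected chaperone genes 7 rose (4 without 5aza-dC array 2) and 4 fell (2 without 5aza-dC array 1), and the small heat shock genes Hspb1 (2.05 ± 0.09) and Cryab (1.87 ± 0.10) rose most.

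Several further lists had shares of rises nearer to the 30.1% of all genes. Of 21 detected genes that silence or destroy retroelements and foreign DNA 7 rose and 2 fell, shares of 33.3% and 9.52%. Those that rose included the RNA helicase Mov10 (109.9 to 201, 1.41 ± 0.14), the DNA exonuclease Trex1 (173 to 343, 1.41 ± 0.11) and the cytidine deaminase Apobec3 (1.01 ± 0.08). Of 15 detected metalloproteinase and inhibitor genes 7 rose and 1 fell, with Mmp9 at 1.29 ± 0.09 and Mmp11 at 1.27 ± 0.09. Of 40 detected DNA repair genes 15 rose (37.5%) and 11 fell (27.5%), near the shares of all genes, and under median scaling 1 rose and 1 fell. The list held the damage sensor Ddb2 at 1.40 ± 0.12 and the uracil glycosylase Ung at -1.05 ± 0.07. Of 21 detected Wnt pathway genes 8 rose and 2 fell, with the ligand Wnt4 at least 1.75-fold higher.

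Genes of ribosome assembly formed the most uniform group of falls. Of 38 detected genes (46 measured) 35 fell and none rose, with a median of -0.66. A similar list had been drawn up earlier from genes seen to fall in these arrays, so this count is not independent evidence of its direction. Under median scaling 10 fell and none rose, with a median of -0.80. Polr1b, a large subunit of RNA polymerase I, had levels of 8.87 and 8.75 on the mock arrays and 7.26 and 7.53 on the 5aza-dC arrays (-1.42 ± 0.11). The processing factors Rrp12 (1896 to 605, -1.40 ± 0.10), Grwd1 (-1.26 ± 0.09) and Rrp1b (-1.20 ± 0.09) fell likewise, and Ppan, also of ribosome assembly, was among the 25 largest falls (-1.71 ± 0.16). The ribosome's own proteins moved less, with a median of -0.09. Of 31 detected genes 5 fell (3 without either 5aza-dC array) and 1 rose (3 without mock array 1).

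Growth factor and serum response genes moved both ways, with falls at a higher share than the 27.0% of all genes. Of 6 detected genes of the EGF family 3 fell and none rose (1 fell under median scaling). Hbegf, a ligand of the EGF receptor, went from 1544 to 293, with 353 in recovery, and Btc (-0.62 ± 0.09) and the receptor Erbb2 (-0.64 ± 0.10) also fell, while Egfr did not pass (0.03 ± 0.09). Of 20 detected feedback inhibitors of ERK signalling 9 fell and 3 rose (6 and none under median scaling). Errfi1, which inhibits the EGF receptor, went from 2923 to 730.3 and Phlda1 from 1120 to 287, with 730.2 and 401 in recovery. Among 17 detected immediate early factors 9 fell and 3 rose (3 and 1 under median scaling), with Egr3 at -2.53 ± 0.13 and Myc at -1.22 ± 0.09, whereas Atf3 rose by 1.08 ± 0.13.

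Of 24 detected genes of the actin cytoskeleton 13 fell (4 under median scaling) and 2 rose (1 without either 5aza-dC array). Srf, the transcription factor that drives many of them, went from 1088 to 414 (-1.23 ± 0.08) and Tagln from 159 to 90.5 (-1.15 ± 0.08). In the YAP and TEAD list 9 of 17 detected genes fell and 4 rose, and the 4 became 1 without 5aza-dC array 2. The matricellular gene Ccn1 fell from 3430 to 941 (-1.63 ± 0.07), and the TEAD factors themselves fell, Tead4 by 1.33 and Tead1 by 1.07. Integrin genes moved both ways: Itga5, of the fibronectin receptor, fell from 441 to 173 (-1.41 ± 0.09), while Itgb4, of epithelial hemidesmosomes, rose from 96.9 to 206 (1.89 ± 0.12). Of 25 detected genes of collagens and their processing 11 fell (44.0%, against 27.0% of all genes) and 5 rose, none of them by 2-fold, and under median scaling none passed either way. The largest change on that list was the rise of Col18a1 (0.96). The glucose transporter Slc2a1 fell from 3021 to 1016 (-1.36 ± 0.09), Vegfa by 1.09, and Car9, given above, also fell, while the enolase Eno2 rose from 229.8 to 559 (1.72 ± 0.07).

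Promoter sequence differed between genes called higher and the rest, although sequence played no part in calling them. A promoter was available for 15207 measured genes. CG content was expressed as the observed over expected number of CG dinucleotides in 300 bases around the start, and a promoter was called CG-rich at 0.6 or more. CG-rich promoters made up 77.4% of those of 6654 genes detected and not called, 75.4% of 207 called lower and 46.2% of 444 called higher. Among 98 genes at least 4-fold higher the share was 27.6%. Genes called higher without detection in mock (148) stood at 35.1%, and 7902 genes not detected in any sample at 30.9%. Over all 27025 promoters of the table the share was 36.5%. Tex19.1 (0.64, 15 CG), Txnip (0.80, 22 CG) and Tuba3b (0.71, 14 CG) were among the CG-rich minority of the large rises. These 3 ratios and counts are for the 250 bases before the start, of which the last 120 are printed above. Txnip, which binds thioredoxin, read 132 in mock and 956 in 5aza-dC, and the tubulin gene Tuba3b read 63.9 and 201.

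The ISRE core followed the size of the rise. It was present in 10.6% of promoters of genes called higher, 22.4% of those at least 4-fold higher, 1.45% of those called lower, 2.61% of those detected and not called and 3.49% of all 27025 promoters. In the 250 bases before the start alone, it was present in 9.46% of promoters of genes called higher. By size of difference it was found there in 8 of 16 promoters at 4 or more on the log2 scale and 5 of 16 between 3 and 4. It was found in 7 of 71 between 2 and 3, 23 of 344 between 1 and 2, and 102 of 4943 between -0.5 and 0.5. Of the 25 largest rises 19 had a promoter and 11 of these held the motif in that shorter stretch, against 0 of 17 for the 25 largest falls. The 47 called-higher genes with the motif included, besides those printed, Isg15, Gbp2, Gbp3, Bst2, Eif2ak2, Stat2 and Ddx58.

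**Figure D4:**
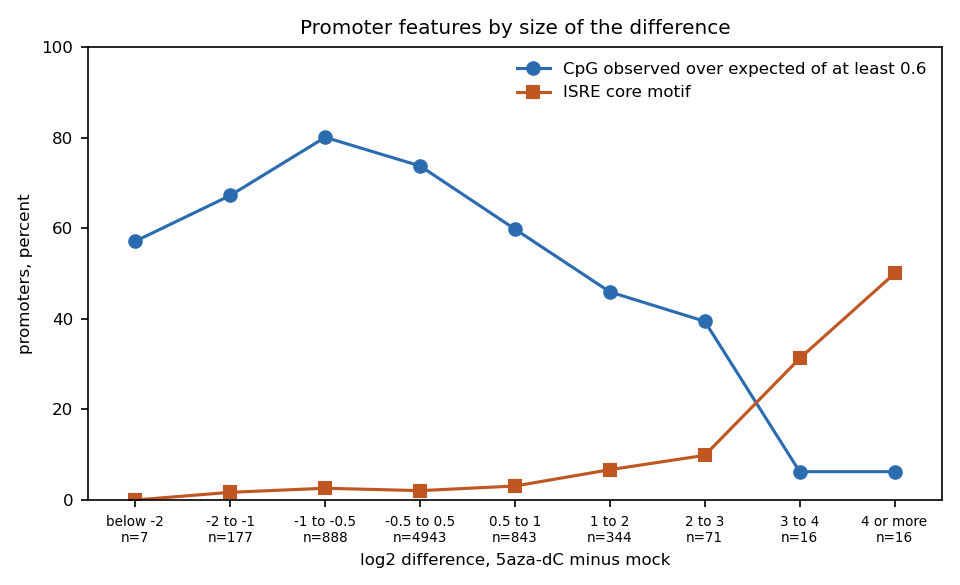
Percent of promoters (y axis) that are CG-rich (circles) or hold the ISRE core (squares), by log2 difference of the gene (x axis, with the number of promoters). Both features are read in the 250 bases before the start. The ISRE share rises from 2.06% between -0.5 and 0.5 to 50% at 4 or more, while the CG-rich share falls from 73.7% to 6.25%.

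The AP-1 motif TGANTCA was found in 16.3% of promoters at least 4-fold higher, 8.56% of those called higher, 7.25% of those called lower, 4.69% of those not called and 7.93% of all promoters. The CArG box, at which Srf is known to bind, was found in 10 of 207 promoters called lower (4.83%), 0.90% of those called higher, 1.31% of those not called and 1.57% of all. Those 10 were Dusp5, Eml1, Srf itself, Ppif, Fhl2, Tiam1, Top1, Inafm2, Fermt2 and Robo1, among them the actin-linked genes Fhl2 and Fermt2. None of these motifs contains another, and no test was made of these shares.

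Called-higher genes lay beside each other in 12 runs of 3 or more adjacent detected genes, 40 genes in all. No such run was found among called-lower genes, which were fewer (2.79% of all genes, against 6.6% called higher). How many runs gene order alone would give was not tested. The run members are named by position, whatever list they stand on. Most runs were families that arose by duplication: Ifit2, Ifit3, Ifit1bl1 and Ifit1bl2 on chromosome 19, Gbp7, Gbp3 and Gbp2 on chromosome 3, Apol7a, Apol9a and Apol9b on chromosome 15, Oas1b, Oas1g and Oas1a on chromosome 5, Ifi207, Mndal and Ifi202b on chromosome 1, Gm12250, Igtp and Irgm2 on chromosome 11, and H2-T23, H2-T10 and Gm8909 on chromosome 17. Other runs joined unlike genes. On chromosome 17, immunoproteasome and peptide transporter genes alternate, and Psmb9, Tap1, Psmb8 and Tap2 were higher together. On chromosome 16, Parp14, Dtx3l and Parp9 were higher.

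The other 3 runs held no gene best known for its response to interferon. On chromosome 11 the keratins Krt19, Krt14, Krt16 and Krt17, intermediate filament genes of epithelia, were all higher, with Krt14 going from 113 to 1296, Krt16 from 98.3 to 422 (2.95 ± 0.16) and Krt17 at least 8.81-fold. Tmem176b, Tmem176a, Gpnmb and Igf2bp3 on chromosome 6 were led by Gpnmb, a glycoprotein of lysosomes and the cell surface, which went from 271 to 2255 (3.53 ± 0.07). Lrrc75b and the glutathione transferases Gstt3 and Gstt1 on chromosome 10 rose by 1.73 ± 0.14, 1.71 ± 0.19 and 2.29 ± 0.12.

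**Figure D5:**
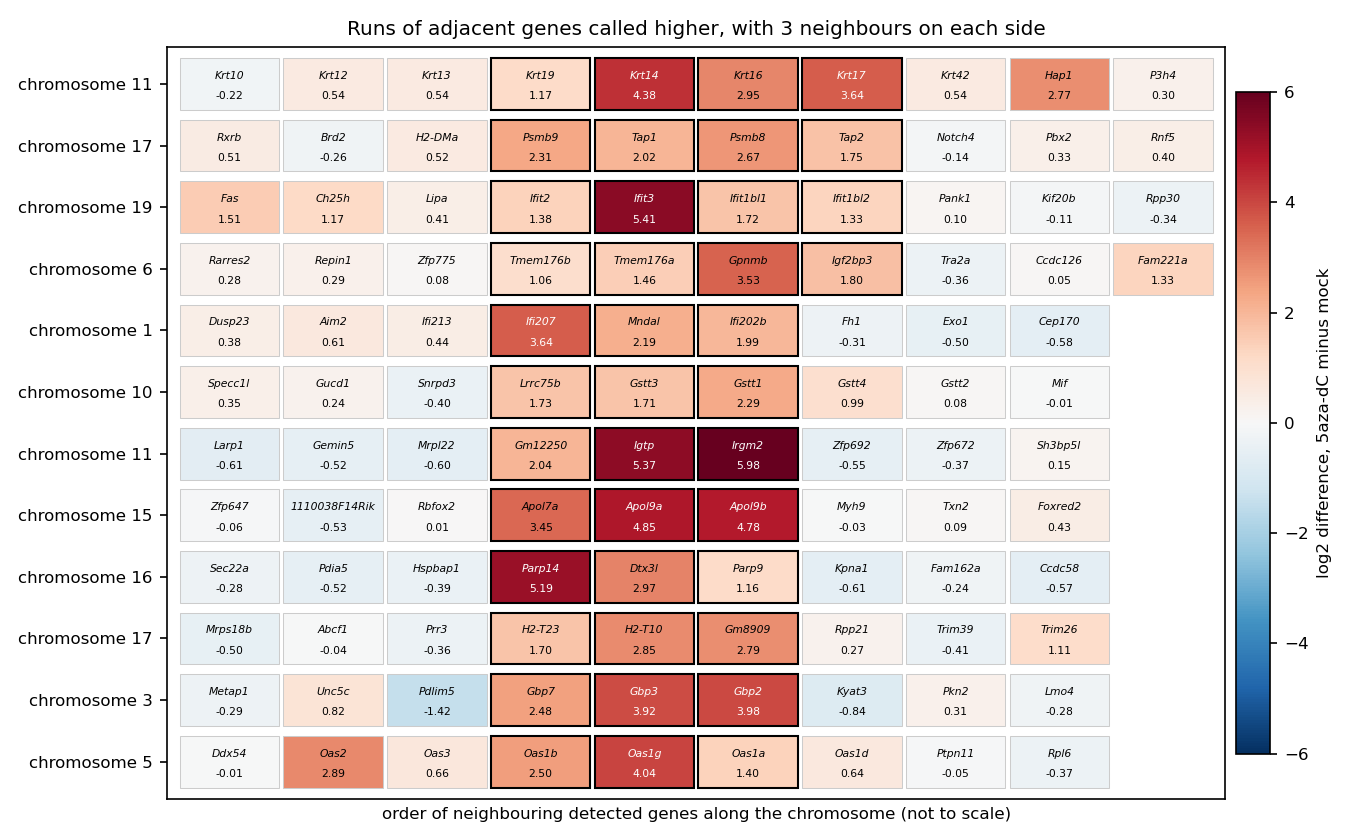
Fitted log2 difference (colour and number) of the genes of each of the 12 runs called higher (black frames) and of the 3 detected genes on either side, in chromosome order and not to distance. Values of genes not detected in mock depend on the background offset. Of the 72 flanking genes, 6 were called higher and 1 lower.

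Of 72 flanking genes, the 3 detected ones on either side of each run, 28 rose and 24 fell, with a median difference of -0.0015. The gene next to each end could not be called higher, since the run would then have been longer. Among the 72, 6 were called higher, a share that this rule lowers beside the 6.6% over all genes. They were Oas2 (given above as a bound), Hap1 (2.77), Fas (1.51), Fam221a (1.33), Ch25h and Trim26 (1.11). Pdlim5 was called lower (-1.42). Ch25h read 63.8 in mock and 90.0 in 5aza-dC, and Fam221a 72.2 and 112, so their sizes depend on the background offset. By chromosome, between 4.17% and 8.85% of detected autosomal genes were called higher, and on the X chromosome 14 of 276 were (5.07%).

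Other probes of the same genes gave a further reading on the same arrays. For 190 called-higher genes, 258 of 262 other detected probes differed in the same direction (98.5%), and 129 were themselves called. For 80 called-lower genes, 105 of 108 did so (97.2%). No detected probe was called against its gene. Among genes not called, 39.4% of 4444 other probes were higher, with 26 of the 4444 called higher and 108 called lower. The split of called genes given above therefore holds for the 1 probe of highest mean per gene.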

How the data were processed

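NIH/3T3 RNA was measured on Illumina bead arrays in 3 samples of which mock and 5aza-dC are compared. Per the file headers, the deposited intensity is non-normalized signal of 45281 probes, each with a detection p-value. A second deposited table holds intensity that the authors had background-subtracted and scaled to a common mean, as read from its values, since 39.5% and 38.5% of it lie below 0 in mock and 5aza-dC. The sources used here do not name the software. Of the probes, 34885 had 1 gene symbol, 18 had several and were left out, and 10378 were unnamed; Entrez numbers matched 34807, and 0 symbols changed. There were 0 columns of other samples. Neighbour order came from a table of GRCm38.p6.

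Values were made with limma 3.58.1 in R 4.3.3 (neqc: normexp from detection p-values, offset 16, quantile normalization, log2), with 1 probe per gene, that of highest mean. Detection p-values lie on steps of 0.5 of 1 control out of 936 (100% of values), so each column is a mean of 2 arrays, which were solved back from the 3 deposited quantities using p-values between 0.05 and 0.97. The misfit SD of the detection p was 0.00109 in mock and 0.00103 in 5aza-dC, against 0.0381 and 0.0288 for 1 array. The arrays' scale factors were 1.18 and 0.68 in mock and 1.14 and 0.94 in 5aza-dC, and how the raw background divides between the arrays is not fixed by the data. Arrays of a pair had r = 0.9957 (mock) and 0.9976 (5aza-dC) across probes, and arrays of different groups 0.9759 to 0.9787. All 6 arrays were fitted with lmFit and eBayes over 8982 genes, with 3 residual degrees of freedom and a prior of 3.70. Both steps were tested on simulated data, the solving on arrays built from its own solutions and the fit with 1 spread for all genes. Neither test covers error carried from the solving into the SEs. A lower bound sets the bright mean against the higher of each dim array's lowest detected level and the gene's own.

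Members and lists were chosen with earlier results of these data known. Named genes are the 25 largest rises and falls, the 10 largest switched-on and switched-off genes, up to 4 passing members of each list (any member where 10 or fewer were detected), promoters as printed and Dnmt1; run members, Ppan beside its list, flanking genes, genes with a motif, Txnip and Tuba3b were named after their values were seen. Promoters were matched by gene number to RefSeq's table, taking the first listed per gene. Alternatives covered the offset, background correction, scaling, source table, detection threshold, filter, probe, moderation, arrays in the fit and leaving out each array.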

Additional observations from a re-analysis of the deposited data

Results flagged for a closer look

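Probes that the annotation used here does not list carried signal that no comparison above uses. Of 10378 such probes, 2100 were detected in at least 1 sample, and 101 were called higher in 5aza-dC (4.81% of those detected) and 97 lower (4.62%). For the 34885 probes with 1 symbol, 13858 were detected, with 748 called higher (5.40%) and 410 lower (2.96%). The genes behind the unlisted probes were not identified.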

How the results depend on the processing

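The p-values rest on arrays solved back from averaged columns, and genes near background have bounds rather than sizes. No paired analysis was possible because the labels carry no replicate numbers shared between groups. Called-higher and called-lower genes numbered 314 and 134 when the added offset was 50, 282 and 118 when background was left in, and 135 and 12 at 4-fold, where the stricter fold itself lowers them; median scaling gave 420 lower. By limma 569 rose and 393 fell under median scaling, and 593 rose and 224 fell with a 2-fold minimum. Leaving out each array in turn gave 1992 to 2658 rises and 1694 to 2418 falls. Switched-off genes numbered 301 at p below 0.05 against above 0.1. With only the bases before the start, 68.1% of called-lower and 72.8% of uncalled promoters were CG-rich. The list medians of integrins (-0.045 at a detection p below 0.05) and of metalloproteinases (-0.041 without a detection filter) turned negative. Except where the construction shows it, the cause was not tested. Of 2773 alternative values of 185 named genes, 0 changed direction, 2602 kept direction and call, and 56 lost the call, 38 of these under median scaling; with 1 array left out, 13 of 1110 did so, in 8 genes, among them Xlr4a (0.36 without 5aza-dC array 2, adjusted p = 0.0702, limma).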
